A study of Mus musculus with 6 samples.

Results

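The genes described here encode the machinery of mitosis, namely kinetochore and checkpoint proteins, mitotic kinases, regulators of mitotic entry and of anaphase, spindle motors, cytokinesis proteins and condensin. They were taken from a list of 57 symbols, and 56 of them had a probe set annotated with that symbol alone, out of 18193 genes measured. Ccnb1 had no such probe set and was not analysed here. Where a gene had several probe sets, the one with the highest mean of log2(signal + 16) over the 6 arrays stood for it.

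RNA came from Ba/F3, an established mouse line described as pro-B cells that need interleukin-3 for growth, which carried the SPAG9-JAK2 fusion behind a doxycycline-inducible promoter of a retroviral Tet-On system. In the induced group (3 arrays) the cells were seeded with doxycycline at 500 ng/ml, and in the uninduced group (3 arrays) the same transduced cells were seeded without it. Both groups were harvested 48 hours later. The series has no cells given the drug in the absence of the fusion, so effects of doxycycline and of SPAG9-JAK2 cannot be told apart. Whether interleukin-3 was in the medium, and whether the line was 1 clone, are not given in the sources used here.

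At mitosis the kinase CDK1, bound to cyclin A or B, drives chromosome condensation, nuclear envelope breakdown and spindle assembly. Kinetochores built on centromeric chromatin bind spindle microtubules, and unattached kinetochores hold the anaphase-promoting complex in check until every chromosome is attached. Separase then releases the sister chromatids, and cytokinesis divides the cell. Most of these genes are transcribed late in the cell cycle, when the repressive DREAM complex gives way to activating complexes that contain B-MYB and FOXM1 at short promoter elements.

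The element most often tied to that timing is the cell cycle genes homology region (CHR), with the letters TTTGAA or TTCGAA, frequently found downstream of CCAAT boxes that bind the factor NF-Y. Both were searched on both strands of the RefSeq windows (GRCm38.p6) that run from 250 bases before to 50 bases after each annotated start. Such windows were matched for 46 of the 56 genes. CHR letters occurred in 34 of these 46 genes (73.9%), against 17.5% of the 14452 tested genes with a window and 19.2% of all 32851 windows. CCAAT letters occurred in 35 of the 46 (76.1%), against 42% of the tested genes and 37.4% of all windows. Both occurred in 31 of the 46, against 8.25% of the tested genes, and in 1 of the 52 windows of these genes the letters of the pair overlapped. CHR letters within 50 bases of the start were found in 31 of the 46 (67.4%), against 4.75% of the tested genes. These matches describe letters only and show no binding.

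**Figure D1:**
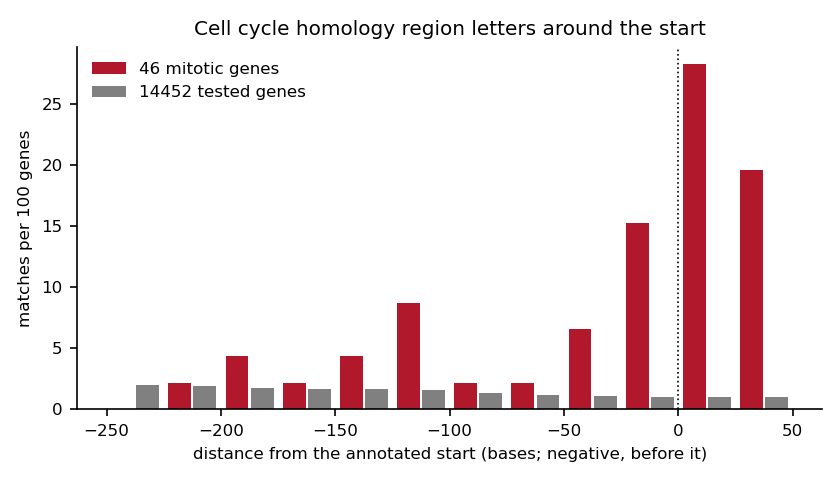
Number of CHR letter matches (TTTGAA or TTCGAA, either strand) per 100 genes in bins of 25 bases, against the distance from the annotated start, for 46 mitotic genes (red) and 14452 tested genes (grey), with 1 window per gene. Matches of the mitotic genes reached 28.3 per 100 genes in the bin just after the start, where the tested genes had 1.02.

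Windows of 4 genes are printed 5′ to 3′ along the gene's strand, with CHR and CCAAT letters of either strand in capitals. Nuf2 and Psrc1 are shown because they had the smallest p-values of the set in each direction. Ndc80 and Spc25 are shown because their products form the NDC80 complex with the Nuf2 protein and their windows hold CHR letters. The Nuf2 window lies at chr1:169531415-169531714 on the minus strand, the Psrc1 window (the first of the 2 listed) at chr3:108383554-108383853 on the plus strand, the Ndc80 window at chr17:71526808-71527107 on the minus strand and the Spc25 window at chr2:69206164-69206463 on the minus strand. The Nuf2 window holds neither set of letters, whereas the others each hold 1 CHR match within 50 bases of the start.
Nuf2: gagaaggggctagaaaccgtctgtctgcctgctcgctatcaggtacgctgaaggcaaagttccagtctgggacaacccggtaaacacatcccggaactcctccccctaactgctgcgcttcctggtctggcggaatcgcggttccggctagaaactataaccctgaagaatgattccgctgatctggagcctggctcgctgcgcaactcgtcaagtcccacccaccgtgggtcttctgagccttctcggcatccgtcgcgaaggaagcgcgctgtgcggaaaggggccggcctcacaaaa
Psrc1: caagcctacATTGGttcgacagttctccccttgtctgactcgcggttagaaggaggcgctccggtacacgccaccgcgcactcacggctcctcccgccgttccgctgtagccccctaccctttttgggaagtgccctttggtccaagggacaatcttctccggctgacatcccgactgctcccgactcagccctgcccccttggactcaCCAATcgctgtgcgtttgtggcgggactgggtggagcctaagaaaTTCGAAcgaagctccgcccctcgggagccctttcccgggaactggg
Ndc80: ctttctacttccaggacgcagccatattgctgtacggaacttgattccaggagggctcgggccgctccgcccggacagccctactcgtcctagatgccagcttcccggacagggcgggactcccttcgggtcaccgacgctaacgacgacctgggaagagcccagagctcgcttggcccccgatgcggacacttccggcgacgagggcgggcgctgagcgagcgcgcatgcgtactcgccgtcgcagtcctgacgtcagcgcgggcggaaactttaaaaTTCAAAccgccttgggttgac
Spc25: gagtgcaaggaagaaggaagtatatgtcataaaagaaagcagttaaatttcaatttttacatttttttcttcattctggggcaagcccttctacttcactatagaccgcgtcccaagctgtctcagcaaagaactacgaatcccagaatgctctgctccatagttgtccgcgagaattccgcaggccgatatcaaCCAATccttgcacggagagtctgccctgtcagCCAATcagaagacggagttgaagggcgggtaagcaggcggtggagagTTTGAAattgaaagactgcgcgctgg

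The 34 genes with CHR letters had a median log2 fold change of 0.15 between induced and uninduced cells, with 26 positive values and a range from -1.25 to 0.67. The 12 genes with a window and without these letters had a median of 0.33, with 11 positive values and a range from -0.11 to 1.31. These medians are descriptions, and the difference between them was not tested.

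Most mitotic genes had a slightly higher signal in induced cells, and 2 of the 56, Nuf2 and Psrc1, differed by more than 1 log2 unit. The log2 fold change, the difference in mean log2(signal + 16) between induced and uninduced arrays, was positive for 45 of the 56 genes, against 44.1% of all 18193 genes and 46.6% of those at or above the median level. Its median was 0.24 over the 56 genes and -0.06 over all genes, and it ranged from -1.25 for Psrc1 to 1.31 for Nuf2. In limma, fitted over all genes with Benjamini-Hochberg adjustment, 0 of the 56 passed an adjusted p of 0.05, where 0.115% of all genes passed as higher and 0.0715% as lower. The smallest adjusted p among them was 0.102. Before adjustment, 11 genes were higher and 1 was lower at the same threshold, against 7.14% and 10.3% of all genes. All 56 genes were at or above the median level. In a fit of such genes only, 15 were higher and 2 lower unadjusted in limma, against 2896 of the 9097 genes in either direction. A log2 fold change above 0.5 was seen for 9 genes, against 10.5% of all genes, and one below -0.5 for 1 gene, against 17.4%. The 95% interval lay wholly between -1 and 1 for 47 of the 56 genes.

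Signals of the 3 induced arrays all lay above those of the 3 uninduced arrays for 22 of the 56 genes, against 10.7% of all genes and 16.9% of genes at or above the median level. They all lay below for 3 genes, against 13.4% and 18.9%. The 3 were Psrc1, Foxm1 and Ube2c. All 56 genes exceeded a log2 signal of 6.22 on all 6 arrays, the 90th percentile of 27 liver and brain genes that stood for background. Nothing in the labels says that the cultures were separate experiments, and the p-values then cover the spread between cultures alone, which may be technical. In bulk cultures, more cells in mitosis and more RNA per mitotic cell cannot be told apart.

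**Figure D2:**
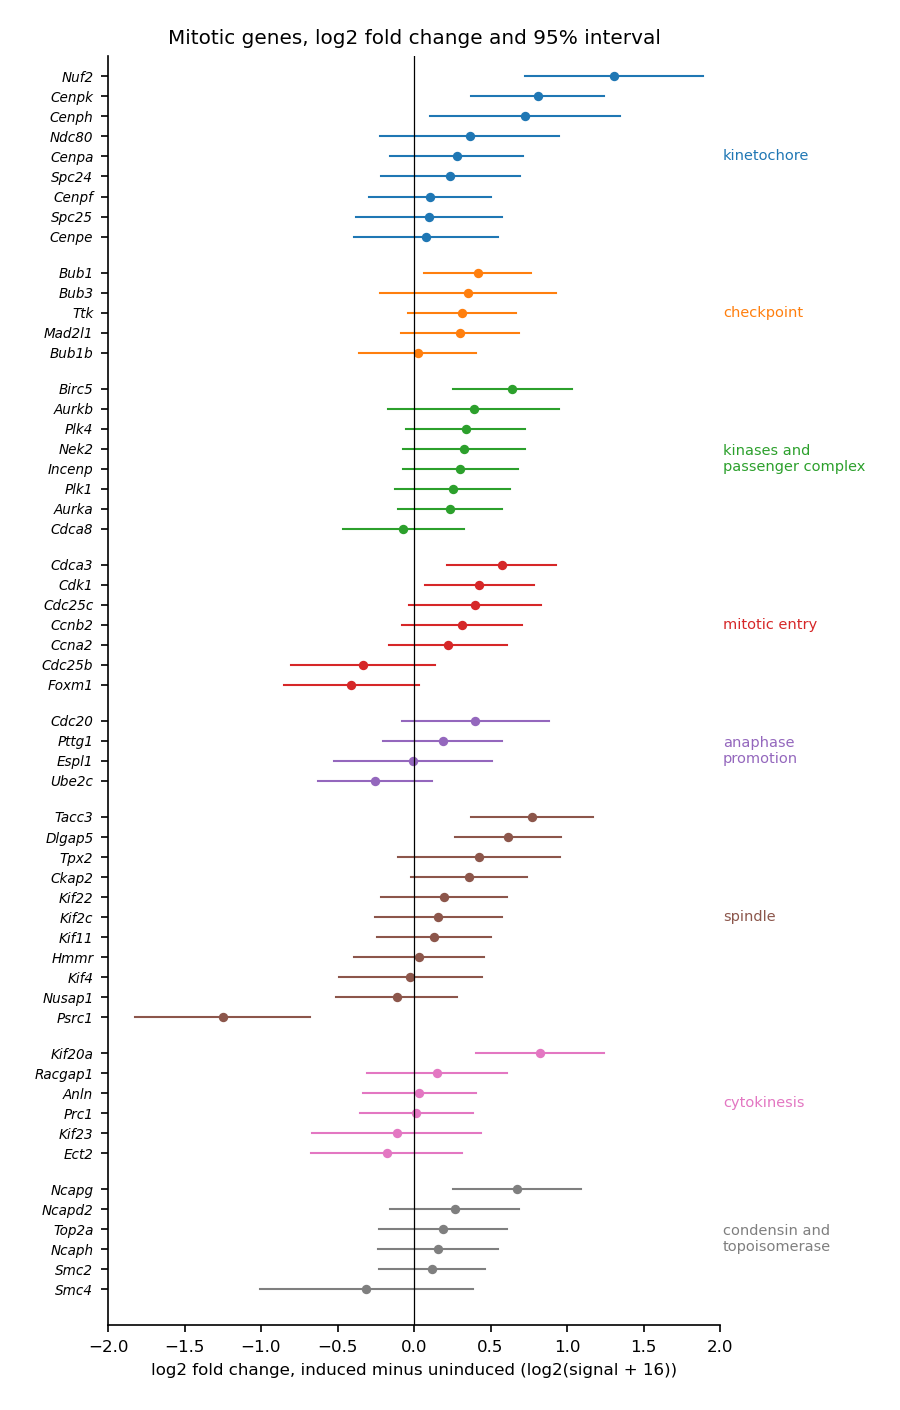
Log2 fold change (induced minus uninduced, points) with its 95% interval in limma (lines) for the 56 mitotic genes, grouped by role and ordered by value within each role. The intervals of 11 genes lie wholly above 0 and that of 1 gene, Psrc1, wholly below.

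Whether a gene passed the threshold depended on the setting. With only genes at or above the median level in the fit, 8 of the 56 were higher and 1 lower in limma, where 3.55% and 4.61% of the 9097 genes passed. With trended and robust variance the counts were also 8 and 1, where 1.3% and 1.72% of all genes passed. The genes under both settings were Nuf2, Cenpk, Birc5, Cdca3, Tacc3, Dlgap5, Kif20a and Ncapg, all higher, and Psrc1, lower. Without uninduced replicate 1 the fit gave 4 higher, namely Cenph, Cenpk, Birc5 and Kif20a, and 0 lower, where 3.22% and 4.77% of all genes passed. Without both arrays numbered 1 there were 4 higher (Cenpk, Tacc3, Kif20a and Ncapg) and 1 lower (Psrc1), where 2.88% and 5.24% passed. With a pseudocount of 64 there were 3 higher (Nuf2, Tacc3 and Kif20a) and 1 lower (Psrc1), where 0.671% and 0.731% passed. Uninduced replicate 1 was the highest of the 3 uninduced arrays for 34 of the 56 genes, and for 8524 of all 18193.

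Array quality and marker lists were examined beside these values. Median signals were 46.5 to 55.2 on induced and 46.3 to 63.8 on uninduced arrays. The ratio of the actin control probe sets at the 3′ and 5′ ends was 1.14 to 1.57 on induced and 1.32 to 1.6 on uninduced arrays, highest in each group on the array numbered 1. For Gapdh it was 0.658, 0.609 and 0.697 on the induced arrays, against 0.688, 0.793 and 0.761 on the uninduced arrays. Both ratios were lower on the induced array of every number, with actin at 1.57, 1.14 and 1.15, against 1.60, 1.32 and 1.37. Of 11 pro-B cell markers measured, 1 (Cd79b) was above background on all arrays, and Rag1, Rag2, Ebf1, Vpreb1 and Pax5 were not. The 11 had a mean log2 level of 5.49 on induced and 5.71 on uninduced arrays. That of the liver and brain genes was 5.31 and 5.33. The list as a whole thus did not bear out the labelled cell type. The summed signal of the 8 myeloid markers was 410 to 1236 on induced and 1039 to 3045 on uninduced arrays. Of the 8, 3 were above background on all arrays and 5 were lower without overlap, against 13.4% of all genes. The 27 liver and brain genes summed to 1292 to 1513 on induced and 1651 to 1889 on uninduced arrays. The 4 erythroid markers, mostly Klf1, summed to 3907 to 4834 on induced and 2317 to 2381 on uninduced arrays, with 2 of the 4 above background. Of their log2 fold changes 2 were positive and 2 negative, with a median of -0.08. The 5 T cell markers summed to 156 to 688 and 98.7 to 323, with 0 above background on all arrays. No marker was listed at 0, and the part of these differences in the mitotic values was not tested.

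Kinetochore genes included the largest positive value of the set. All 9 values were positive, their median was 0.28, and 3 genes were without overlap between groups, where the share of all genes was 10.7% (16.9% at or above the median level). Nuf2, a subunit of the NDC80 complex that binds microtubules at the outer kinetochore, had signals of 1792, 2071 and 1161 on the induced arrays, against 669, 621 and 654 on the uninduced arrays. The lowest induced array was thus well above the highest uninduced one, while the induced arrays differed among themselves far more than the uninduced ones did. The log2 fold change of Nuf2 was 1.31 ± 0.24 (SE), with a 95% interval from 0.73 to 1.89 and an adjusted p of 0.102 in limma. The gene had 1 probe set, so no other probe set could be set beside it.

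The other subunits of the NDC80 complex had smaller values. Ndc80, which pairs with Nuf2, stood at 0.36 ± 0.24 with overlap between groups, and its signal in the arrays numbered 1 was lower on the induced array (833, against 1037). Spc24 and Spc25, which join the complex to the inner kinetochore, stood at 0.24 ± 0.19 and 0.10 ± 0.20. The 95% intervals ran from -0.38 to 0.58 for Spc25, -0.22 to 0.69 for Spc24 and -0.22 to 0.95 for Ndc80. That of Nuf2 ran from 0.73 to 1.89. The difference between these subunits was not tested, and Nuf2 is set apart here as the largest value of the set.

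Cenpk and Cenph encode proteins of the constitutive network that stays on centromeric chromatin and recruits the outer kinetochore. Cenpk had signals of 2682, 2484 and 2402 on the induced arrays, against 1729, 1252 and 1355 on the uninduced arrays. Cenph had signals of 1537, 1368 and 1231 on the induced arrays, against 1172, 756 and 634 on the uninduced arrays. For both genes the groups were separate and uninduced replicate 1 was the highest uninduced array. Cenpk stood at 0.81 ± 0.18 (adjusted p of 0.132 in limma) and Cenph at 0.72 ± 0.26 (adjusted p of 0.233 in limma). Without uninduced replicate 1 they stood at 0.94 and 0.97, with adjusted p of 0.0303 and 0.0403 in limma. Of all genes, 3.22% passed as higher in that fit. Leaving out any other single array gave adjusted p of 0.202 to 0.366 for Cenpk and 0.364 to 0.512 for Cenph in limma. A second probe set of Cenpk above background gave 0.66.

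The remaining kinetochore genes had intervals that include 0. Cenpa, the histone variant that marks centromeres, stood at 0.28 ± 0.18, Cenpf at 0.10 ± 0.17 and Cenpe, a kinesin that helps chromosomes congress, at 0.08 ± 0.19. Other probe sets above background gave 0.72 for Cenpe, 0.03 for Cenpa and 0.51 for Spc25. For Cenpf the probe sets disagreed, since its 2 others above background gave -0.51 and 1.81.

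**Figure D3:**
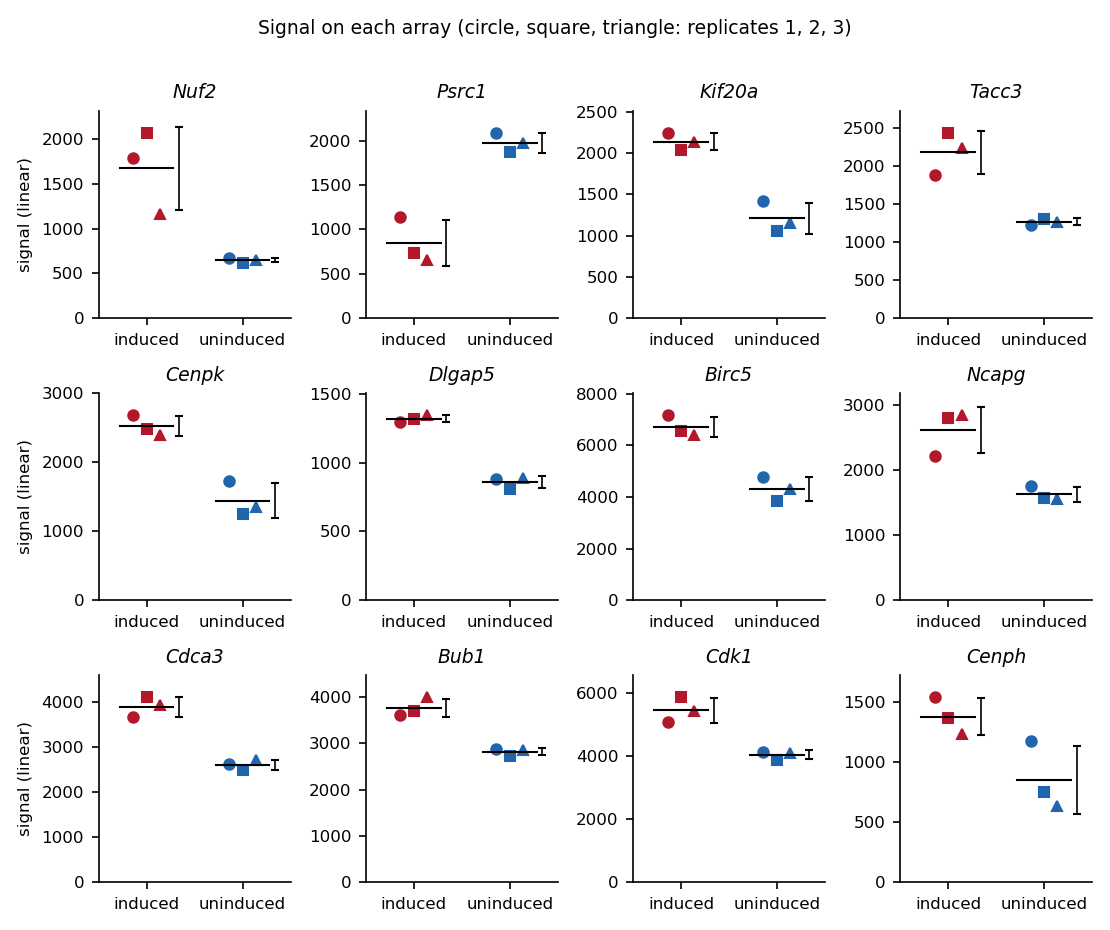
Signal on each array (linear scale from 0) for the 12 mitotic genes with the smallest p, on induced (red) and uninduced (blue) arrays, with lines at the means and bars of 1 SD (n = 3). Induced arrays lie above uninduced arrays in all panels except that of Psrc1, where they lie below.

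Spindle assembly checkpoint genes were all slightly positive, from 0.02 to 0.42 with a median of 0.32 over 5 genes. Bub1, a kinase that assembles checkpoint proteins at kinetochores, had signals of 3608, 3702 and 3983 on the induced arrays, against 2876, 2727 and 2845 on the uninduced arrays. Its log2 fold change was 0.42 ± 0.14, with a 95% interval from 0.07 to 0.76 and an adjusted p of 0.227 in limma. Its other probe set gave 0.09, so its size rests on 1 probe set. Ttk, the kinase MPS1 that starts checkpoint signalling, had signals of 1789, 1721 and 1645 on the induced arrays, against 1318, 1347 and 1472 on the uninduced arrays. Mad2l1, the checkpoint protein that binds CDC20, had signals of 6886, 8183 and 7372 on the induced arrays, against 6664, 5838 and 5709 on the uninduced arrays. Neither gene had overlapping groups, although the closest arrays of Mad2l1 differed by little. Ttk stood at 0.32 ± 0.15, with 0.95 from its other probe set, and Mad2l1 at 0.30 ± 0.16, both with intervals that include 0. Bub3 stood at 0.36 ± 0.24 with overlapping groups, and Bub1b, which encodes the inhibitor BUBR1, at 0.02 ± 0.16. A second probe set of Bub1b, almost as bright, gave 0.40. The second probe sets of Bub1 and Ttk were dim, with mean log2 signals of 6.33 and 6.37, close to background.

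Among the mitotic kinases and the chromosomal passenger complex, 7 of 8 genes were positive, with a median of 0.32. The groups did not overlap for 6 of the 8, all higher, against 10.7% of all genes and 16.9% of those at or above the median level. Birc5, which encodes the passenger subunit survivin, had signals of 7168, 6566 and 6416 on the induced arrays, against 4778, 3845 and 4305 on the uninduced arrays. Its groups were separated by more than the spread within either. The log2 fold change was 0.64 ± 0.16, with a 95% interval from 0.25 to 1.03 and an adjusted p of 0.146 in limma. The adjusted p of Birc5 in limma was 0.0496 without uninduced replicate 1, and 0.215 to 0.4 without any other single array. The other passenger genes were smaller, with Aurkb, the kinase of the complex, at 0.39 ± 0.23, Incenp, its scaffold, at 0.30 ± 0.16 and Cdca8, which encodes borealin, at -0.07 ± 0.16. Only Incenp of these 3 had no overlap between groups, and its 3 other probe sets above background gave from 0.30 to 0.46. The sign of Cdca8 depended on the probe set, since its others above background gave 0.01 and 0.10.

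Plk4, the kinase that controls centriole duplication, had signals of 4608, 4743 and 4591 on the induced arrays, against 4176, 3258 and 3647 on the uninduced arrays. Nek2, a kinase of centrosome separation, had signals of 2494, 2883 and 2803 on the induced arrays, against 2368, 1895 and 2265 on the uninduced arrays. In both genes the induced arrays were higher than every uninduced array by a narrow margin. Plk4 stood at 0.34 ± 0.16 and Nek2 at 0.33 ± 0.17, with intervals that include 0. Other probe sets above background gave 0.59 and 0.94 for Plk4, and 0.01 and 0.51 for Nek2. Plk1, the central kinase of mitotic progression, stood at 0.25 ± 0.16 and Aurka, the spindle pole kinase, at 0.24 ± 0.14, both without overlap.

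Regulators of mitotic entry were divided. Of 7 genes, 5 were positive and 2 negative, with a median of 0.31. Cdca3, which encodes an adaptor for destruction of the inhibitory kinase WEE1, had signals of 3665, 4110 and 3933 on the induced arrays, against 2621, 2505 and 2727 on the uninduced arrays. Cdk1 itself had signals of 5069, 5858 and 5436 on the induced arrays, against 4138, 3885 and 4112 on the uninduced arrays. The lowest induced array exceeded the highest uninduced array for both. Cdca3 stood at 0.57 ± 0.15 (adjusted p of 0.151 in limma) and Cdk1 at 0.43 ± 0.15 (adjusted p of 0.228 in limma). With the most variable probe set in place of the brightest, Cdca3 stood at -0.11, and its 2 other probe sets were not above background.

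Cdc25c, a phosphatase that activates CDK1, had signals of 505, 385 and 411 on the induced arrays, against 364, 303 and 305 on the uninduced arrays. Its groups were separate, and it stood at 0.40 ± 0.18. Cdc25b, a phosphatase of the same family, stood at -0.33 ± 0.19 and was opposite in sign between the arrays numbered 1 (0.15) and the others (-0.57). The cyclin genes Ccnb2 and Ccna2 stood at 0.31 ± 0.16 and 0.22 ± 0.16, and a second probe set of Ccna2 gave 0.81. Foxm1, a transcription factor that activates genes of this phase, stood at -0.41 ± 0.18, with signals of 213, 228 and 295 on the induced arrays, against 300, 331 and 356 on the uninduced arrays. The nearest arrays were almost level, and its 2 other probe sets above background gave -0.03 and -0.02. Mybl2, the gene of B-MYB and not a member of this set, stood at 0.68 ± 0.15, higher without overlap.

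Genes of anaphase onset were close to balance, with 2 positive and 2 negative values and a median of 0.09 over 4 genes. Cdc20, an activator of the anaphase-promoting complex, had signals of 13920, 11967 and 11715 on the induced arrays, against 11864, 8454 and 8451 on the uninduced arrays. The first uninduced array reached the induced range, so the groups overlapped, and the log2 fold change was 0.40 ± 0.20. Ube2c, the ubiquitin-conjugating enzyme of that complex, had signals of 7722, 8586 and 7755 on the induced arrays, against 8745, 9874 and 10131 on the uninduced arrays. All its induced arrays were lower, and it stood at -0.26 ± 0.15. Pttg1, which encodes the separase inhibitor securin, had signals of 12658, 12758 and 11005 on the induced arrays, against 11826, 10049 and 10117 on the uninduced arrays. Its groups overlapped and it stood at 0.19 ± 0.16, while Espl1, the gene of separase, stood at -0.01 ± 0.21.

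The spindle genes included the lowest value of the set, with 8 of 11 positive, and a median of 0.16. Without overlap 3 were higher and 1 lower, against 10.7% and 13.4% of all genes. Psrc1, which encodes a microtubule-associated protein that helps set spindle dynamics, had signals of 1142, 733 and 655 on the induced arrays, against 2085, 1868 and 1969 on the uninduced arrays. The uninduced arrays were close together and induced replicate 1 was the highest induced array. The log2 fold change of Psrc1 was -1.25 ± 0.24, with a 95% interval from -1.82 to -0.68 and an adjusted p of 0.106 in limma. A second probe set above background gave -1.81. In the arrays numbered 1 the difference was -0.86, and in those numbered 2 and 3 it was -1.45. No other member was lower by as much, since the other 10 negative values lay between -0.41 and -0.01.

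Tacc3, part of a complex that cross-links microtubules of kinetochore fibres, had signals of 1883, 2439 and 2240 on the induced arrays, against 1221, 1312 and 1272 on the uninduced arrays. Dlgap5, which encodes the kinetochore-fibre stabiliser HURP, had signals of 1297, 1318 and 1343 on the induced arrays, against 881, 806 and 886 on the uninduced arrays. Both genes had separate groups, and the induced arrays of Dlgap5 were the closer together. Tacc3 stood at 0.77 ± 0.17 (adjusted p of 0.123 in limma), and its 2 other probe sets above background gave 0.35 and 0.42. Dlgap5 stood at 0.61 ± 0.14 (adjusted p of 0.138 in limma), and its other probe set gave 0.48.

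Among the spindle motors the brightest probe sets gave small values, and several other probe sets gave larger ones. The kinesin Kif11, which pushes the spindle poles apart, stood at 0.13 ± 0.15, Kif22 and Kif4, kinesins bound to chromosome arms, at 0.20 ± 0.17 and -0.02 ± 0.19, and Kif2c, a microtubule depolymerase, at 0.16 ± 0.17. Their groups overlapped in each case. Other probe sets above background gave 0.10 and 0.89 for Kif11, 0.31 and 0.41 for Kif22, and 0.38 and 0.72 for Kif2c, so the size of these values depended on the probe set. The microtubule proteins Tpx2, an activator of Aurora A, and Ckap2 stood at 0.42 ± 0.22 and 0.36 ± 0.16, and Hmmr and Nusap1 at 0.03 ± 0.18 and -0.11 ± 0.16. Of these 4 only Ckap2 had no overlap between groups. Other probe sets of Tpx2 gave from -0.22 to 0.46, those of Hmmr from 0.18 to 0.32, and that of Nusap1 -0.43.

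Cytokinesis genes had small values by their brightest probe sets, except Kif20a. Kif20a, a kinesin that brings the passenger complex to the central spindle, had signals of 2245, 2042 and 2132 on the induced arrays, against 1421, 1062 and 1148 on the uninduced arrays. The groups were well apart, and the gene had 1 probe set. The log2 fold change of Kif20a was 0.82 ± 0.17, with a 95% interval from 0.41 to 1.24 and an adjusted p of 0.121 in limma. Its adjusted p in limma was 0.0296 without uninduced replicate 1, and 0.186 to 0.358 without any other single array. Ect2, the exchange factor that activates RhoA for the contractile ring, had signals of 2467, 2718 and 3264 on the induced arrays, against 2573, 3480 and 3541 on the uninduced arrays. Racgap1, of the centralspindlin complex, had signals of 2008, 2944 and 2606 on the induced arrays, against 2240, 2173 and 2318 on the uninduced arrays. Both overlapped, at -0.18 ± 0.20 and 0.15 ± 0.19, and the sign of Racgap1 turned with its other probe set (-0.22). Kif23, the motor of centralspindlin, stood at -0.11 ± 0.23, Anln, a scaffold of the ring, at 0.03 ± 0.15 and Prc1, which bundles the central spindle, at 0.01 ± 0.15. Other probe sets gave 0.11 for Kif23, -0.24 for Anln and 0.37 for Prc1. The median over the 6 genes was 0.02.

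Condensin, the complex that compacts mitotic chromosomes, was represented by its core pair Smc2 and Smc4 and by the condensin I subunits. Ncapg had signals of 2208, 2793 and 2840 on the induced arrays, against 1752, 1572 and 1550 on the uninduced arrays. Ncapd2 had signals of 1804, 1499 and 1428 on the induced arrays, against 1455, 1189 and 1279 on the uninduced arrays. The groups were separate for Ncapg and overlapped narrowly for Ncapd2. Ncapg stood at 0.67 ± 0.17 (adjusted p of 0.150 in limma), with 0.99 from its other probe set, Ncapd2 at 0.27 ± 0.17 and Ncaph at 0.16 ± 0.16. The core genes Smc2 and Smc4 stood at 0.12 ± 0.14 and -0.31 ± 0.29. For Smc2 the 3 other probe sets above background gave 0.54, 0.60 and 0.68, all larger, and for Smc4 the others gave -0.23 and -0.12. Smc4 differed within the uninduced group more than between groups, with 7019 on uninduced replicate 1 and 13441 and 12497 on the other two. Top2a, the topoisomerase that untangles sister chromatids, had signals of 17406, 16955 and 16739 on the induced arrays, against 17772, 13081 and 14266 on the uninduced arrays. Uninduced replicate 1 was the highest array of all, so the groups overlapped, and the gene stood at 0.19 ± 0.17. Its other probe set above background gave 0.87.

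**Figure D4:**
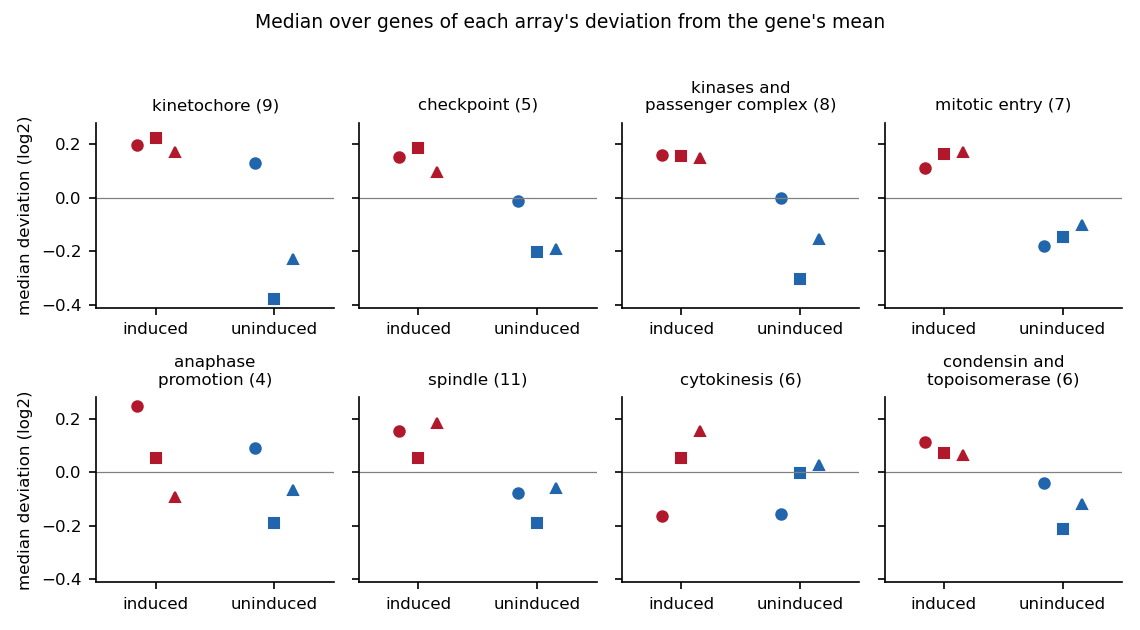
For each role (number of genes in brackets), the median over its genes of each array's deviation from the gene's mean over 6 arrays (log2), on induced (red) and uninduced (blue) arrays, with circle, square and triangle for replicates 1, 2 and 3. Uninduced replicate 1 lies at 0.13 for kinetochore genes, above uninduced replicates 2 and 3 at -0.38 and -0.23. For anaphase promotion and for cytokinesis the arrays do not separate by group.

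By replicate number, the median difference between induced and uninduced arrays over the 56 genes was 0.15 in the arrays numbered 1, 0.34 in those numbered 2 and 0.23 in those numbered 3. In all 3 of these comparisons 32 genes were positive and 5 were negative, against 18.6% and 24.8% of all genes. The mean level of the 56 genes was 11.52 ± 0.02 on induced and 11.29 ± 0.07 on uninduced arrays (log2, SD, n = 3 each).

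**Figure D5:**
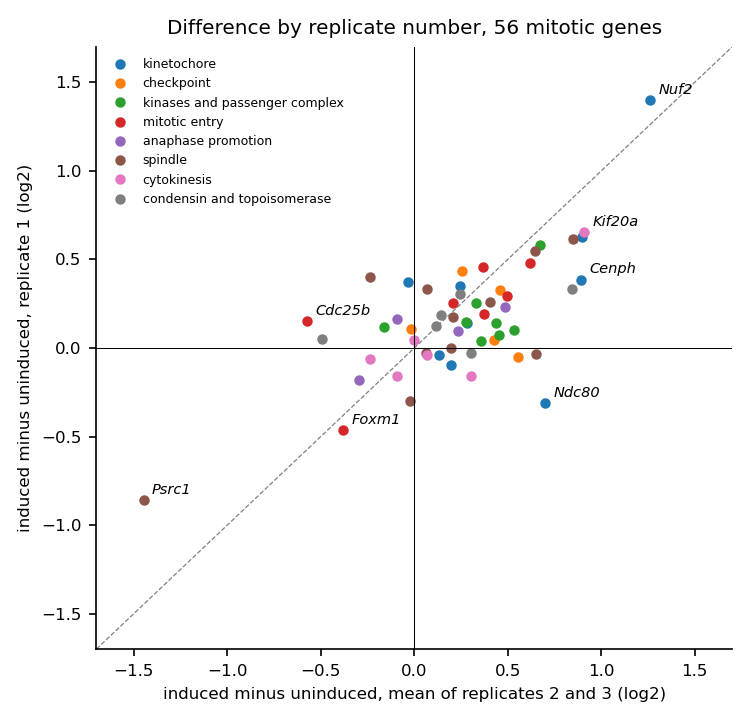
Difference between induced and uninduced arrays (log2) in the arrays numbered 1 (vertical) against the mean difference in those numbered 2 and 3 (horizontal) for the 56 mitotic genes, coloured by role, with the dashed line at equality. Nuf2 and Psrc1 lie apart from the rest on both axes. Several genes change sign between the axes, among them Ndc80 (-0.31 and 0.70), Cdc25b (0.15 and -0.57) and Kif4 (0.40 and -0.24).

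Further genes of the same machinery were described from a list of 100 other mitotic genes. Of the 97 measured, 70 had a positive value, against 44.1% of all genes, and the median was 0.15. In limma 0 of the 97 passed over all genes, with 20 higher and 0 lower at an unadjusted p under 0.05, against 7.14% and 10.3% of all genes. The smallest adjusted p was that of Zwilch (0.0877), which encodes part of the RZZ complex of unattached kinetochores. Zwilch had signals of 2090, 1833 and 2216 on the induced arrays, against 1035, 845 and 1033 on the uninduced arrays, and stood at 1.07 ± 0.17. Its lowest induced array was far above its highest uninduced array. Spdl1, the dynein adaptor Spindly that RZZ recruits, stood at 0.79 ± 0.17 without overlap. The other RZZ genes Zw10 and Kntc1 stood at 0.67 ± 0.25 and 0.14 ± 0.28.

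Cenpi, whose product is in 1 subcomplex with those of Cenph and Cenpk, stood at 0.90 ± 0.22 and had signals of 927, 1306 and 1264 on the induced arrays, against 745, 568 and 534 on the uninduced arrays. The groups were separate. Cenpm, of the same subcomplex, stood at 0.16 ± 0.18 with overlap, and Cenps, which also serves in DNA repair, at 0.81 ± 0.24. Regulators of entry included Cdc25a, a phosphatase that activates cyclin-dependent kinases, at 0.86 ± 0.17 and Ccnf, the cyclin F subunit of a ubiquitin ligase, at 0.79 ± 0.15. The kinase genes Melk and Haspin stood at 0.82 ± 0.19 and 0.58 ± 0.15, and the anaphase-promoting complex subunits Anapc11 and Cdc23 at 0.56 ± 0.16 and 0.54 ± 0.20. All 6 of these genes had no overlap between groups, but they were named for having the smallest p in their roles. Over the 97 genes, 32 were higher and 6 lower without overlap, against 10.7% and 13.4% of all genes. None of the 6 passed in the fit over all genes.

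The remaining roles of this list had medians of 0.01 for 13 spindle genes, 0.25 for 4 cytokinesis genes and 0.00 for 13 condensin and cohesin genes. The spindle genes Troap and Spag5 stood at 0.92 ± 0.27 and 0.42 ± 0.23. The kinesin gene of cytokinesis Kif20b stood at 0.56 ± 0.18, and Kif14 was not above background on any array, with signals of 28.9 to 47.0 on induced and 18.8 to 39.1 on uninduced arrays. The cohesin subunit gene Stag2 stood at -0.35 ± 0.17 and the cohesin regulator gene Pds5b at 0.47 ± 0.20. The condensin II genes Ncapd3, Ncapg2 and Ncaph2 stood at -0.19 ± 0.17, -0.13 ± 0.17 and 0.00 ± 0.23, and their groups overlapped.

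Replication genes were set beside the mitotic genes on the same arrays. The list of 34, of origin licensing and fork proteins of the preceding phase, had a median of 0.54, with 32 positive values, against 44.1% of all genes. Without overlap 23 were higher and 1 lower, against 10.7% and 13.4% of all genes. In limma 0 of the 34 passed over all genes, with 19 higher and 0 lower before adjustment and a smallest adjusted p of 0.0599. The difference between the medians of the lists was not tested.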

How the data were processed

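Signal intensities of 6 Affymetrix arrays, 3 of induced and 3 of uninduced Ba/F3 cultures grouped by the labels' titles, were deposited by the authors on a linear scale. The tool was Affymetrix Expression Console 1.4.1, per the submitters' processing notes. The values showed a trimmed mean of 500 on each array, leaving out 2% at each end. The summary algorithm and detection calls are not given in the sources used here. Precision is limited by how many arrays there are.

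The deposited intensities were turned into log2(signal + 16), which understates changes of dim genes. The 64 control probe sets were left out, and the 34945 probe sets with exactly 1 symbol gave 18193 genes. For 34741 of them an Entrez number was found in the gene table of GRCm38.p6. Another probe set holds Foxm1 with other symbols and was not used. Groups were compared with limma 3.58.1 in R 4.3.3 by a two-sided moderated test with 4 residual degrees of freedom (lmFit, eBayes), first tested on simulated data. Adjustment was by Benjamini-Hochberg across the 18193 genes, at 0.05. No set test was used.

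The members and lists were chosen with earlier results of these data known. Named were the 3 members of each role with the smallest p, with all arrays, and the 2 such genes of each role among the other mitotic genes. Further genes given by value are partners in their complexes and Mybl2, chosen after their values were seen. Of 11 pro-B, 8 myeloid, 5 T cell, 4 erythroid and 27 liver and brain genes, the last set the background. Alternatives were the replicate number as a block, median centring, quantile normalization, a filter at the median level, other choices of probe set, trended and robust variance, pseudocounts of 1 and 64, leaving out each array or both numbered 1, and the arrays numbered 1 as a batch. Promoter windows came from RefSeq (GRCm38.p6). Python 3.11.15 and matplotlib 3.10.9 were used for motifs and figures.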

Additional observations from a re-analysis of the deposited data

How the results depend on the processing

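The count of mitotic genes past the threshold in limma was 0 of 56 in the reported fit. It was 9 with the filter at the median level, 9 with trended and robust variance, 4 with a pseudocount of 64 and 5 without both arrays numbered 1. Leaving out each array gave from 0 to 4, and the 4 came without uninduced replicate 1. The cause was not tested. Under the replicate block the count was 0 (smallest adjusted p 0.198 in limma, 10 higher and 1 lower unadjusted), and 0 of all genes passed. As a check of pairing, deviations from the group means correlated at 0.17, 0.08 and 0.08 between arrays numbered 1, 2 and 3, not all above 0.1, so the numbers were not taken as pairs. Every array correlated best with the one of its own number, a hint from the data only. The count over all genes was 34 in the reported fit. It was 742, 550 and 255 under the first 3 of those settings, 1477 without both arrays numbered 1, 19 with the most variable probe set and 0 with a pseudocount of 1 (2807 unadjusted, limma). Leaving out each array gave from 0 to 1453. The median log2 fold change of the mitotic genes was 0.24, and 0.30 with probe sets averaged per gene and 0.39 with the most variable one. It ranged from 0.19 to 0.27 over the left-out arrays. For the named genes 58 values came past the threshold under another setting, 617 kept direction and side, and 4 changed sign, all by the choice of probe set. These were Racgap1 (-0.16 and -0.42), Cdca3 (-0.11) and Anapc11 (-0.14). That count leaves out the other members, and several of those also crossed 0 over the settings. Among them were Cenpf (-0.03 to 1.81), Cenpe (-0.02 to 0.72), Spc25 (-0.07 to 0.51) and Bub1b (-0.29 to 0.10). Kif4 (-0.24 to 0.08) and Espl1 (-0.18 to 0.10) had 1 probe set each, so their sign did not turn by the choice of probe set.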
